A study of Mus musculus with 17 samples.

Results

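Pomc, Agrp, Npy and Cartpt encode the peptide precursors of the hypothalamic neurons that set appetite, and the H3K27ac peaks around these 4 genes are described here. The genes were chosen by name, with earlier results of these data known but with no threshold on a measured value, and are 4 of the 21887 protein-coding genes on the chromosomes of the peak list. For each gene, every peak sharing at least 1 bp with its RefSeq span and 50 kb to either side was taken, in the mm10 build. This gave 63 of the 183678 peaks of the list.

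The study profiled mouse hypothalamus, with no genotype, age or treatment given in the labels. Its samples fall into 3 groups: 7 Paired-Tag DNA sub-libraries and 7 for RNA, in which a histone mark (the antibodies were against H3K27ac and H3K27me3) and the transcripts of single nuclei are read together, and 3 bulk H3K27ac CUT&Tag samples, titled as biological replicates. H3K27ac, acetylation of lysine 27 of histone H3, marks active promoters and enhancers, and CUT&Tag maps it by tethering the Tn5 transposase to antibody-bound chromatin. The values below come from 1 peak list named for all 3 bulk samples, and the sub-libraries were not analysed here.

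That list gives neither read counts nor values for single replicates. The depth is therefore unknown, no spread between samples can be given, and no difference below was tested. Each peak carries a fold enrichment and a −log10 q, both given by the authors' peak caller and used here only to rank and describe peaks within the list. Over the list the median fold was 3.18 (quartiles 2.60 and 4.24), the median −log10 q was 13.1 and the median width was 557 bp. In bulk tissue, fewer cells carrying the mark and less of the mark per cell cannot be told apart. The mark also says nothing of which cells held it, since Npy and Cartpt are expressed in many neurons outside the arcuate nucleus.

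In the arcuate nucleus, neurons that make AgRP and NPY promote feeding, and neurons that make POMC and CART suppress it. POMC is cut into melanocortins, which act on the receptors Mc3r and Mc4r, and AgRP is an antagonist at those same receptors. NPY stimulates feeding through its own receptor family, and both kinds of neuron sense leptin and other circulating signals.

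The promoter sequences show what lay before the starts given by the RefSeq promoter table. For Cartpt this start lies inside the gene, 9496 bp from the 5′ end of the span. That 5′ end, and not the inner start, is the one used below for its start fold and upstream distances. The 250 bases before the start are given below 5′ to 3′ on the strand of the gene, from the RefSeq promoter table of GRCm38.p6, for Pomc (chr12:3954695-3954944, plus strand), Npy (chr6:49822460-49822709, plus strand) and Cartpt (chr13:99900684-99900933, minus strand). Atp6v0d1 (chr8:105566065-105566314, minus strand), which encodes a subunit of the vacuolar proton pump, is the neighbour whose start shares a peak with Agrp, and its promoter is shown for that reason. Capitals mark TATAA, TGACGTCA and TAATTA on either strand.
Pomc: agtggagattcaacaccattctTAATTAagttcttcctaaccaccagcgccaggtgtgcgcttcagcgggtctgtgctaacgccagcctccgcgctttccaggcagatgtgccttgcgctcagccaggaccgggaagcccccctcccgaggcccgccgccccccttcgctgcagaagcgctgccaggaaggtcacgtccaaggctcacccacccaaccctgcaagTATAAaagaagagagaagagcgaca
Npy: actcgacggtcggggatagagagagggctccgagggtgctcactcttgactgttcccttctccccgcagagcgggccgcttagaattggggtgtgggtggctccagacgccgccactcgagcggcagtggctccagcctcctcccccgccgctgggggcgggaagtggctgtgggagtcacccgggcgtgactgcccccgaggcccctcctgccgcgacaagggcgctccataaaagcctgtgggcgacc
Cartpt: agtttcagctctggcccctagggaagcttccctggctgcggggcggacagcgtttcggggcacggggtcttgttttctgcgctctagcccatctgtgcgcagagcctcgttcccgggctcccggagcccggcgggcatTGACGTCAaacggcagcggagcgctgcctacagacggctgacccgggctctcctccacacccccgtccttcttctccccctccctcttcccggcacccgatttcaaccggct
Atp6v0d1: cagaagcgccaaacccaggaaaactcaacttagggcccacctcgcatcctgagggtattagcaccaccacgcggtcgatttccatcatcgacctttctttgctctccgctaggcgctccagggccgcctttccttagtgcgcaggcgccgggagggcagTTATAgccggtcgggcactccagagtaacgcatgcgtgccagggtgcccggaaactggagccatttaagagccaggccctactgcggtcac

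The Pomc promoter held TATAA, the core of the TATA box, with its first base 25 bp before the start, and the homeodomain palindrome TAATTA at 228 bp. TATAA was present in 20.3% and TAATTA in 4.31% of the 21263 promoters of the table, over the same length. The Cartpt promoter held the full cAMP response element TGACGTCA at 112 bp before the inner start, a sequence present in 1.92% of promoters. The Npy promoter held none of these 3 sequences. The GC box GGGCGG, found in 42.6% of promoters, was present in all 3 peptide promoters. The E-box CANNTG, found in 62.8%, was present in those of Pomc and Cartpt. TTCNNNGAA (6.58% of promoters), the sequence bound by STAT factors, and GTAAACA (2.62%), bound by forkhead factors, were searched on both strands and had no match in the 4 sequences. The promoter of Atp6v0d1 held TATAA on the opposite strand, 91 bp before the start, and no match overlapped another. A match here is a description of letters and not a bound site.

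All 3 peptide promoters were rich in GC. Pomc had 60.0% GC and 15 CpG sites, Npy had 69.2% and 21, and Cartpt had 66.8% and 22. Across the table, promoters with a peak within 1 kb had a median of 60.0% GC and 15 CpG sites, and those without one had 44.8% and 2. Base composition thus placed Pomc level with the promoters that carry a peak, although, as described next, it carried none.

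Pomc, precursor of the melanocortins and beta-endorphin, had no H3K27ac peak at its start. The gene (GeneID 18976) spans chr12:3954945-3960643 on the plus strand, and no peak lay within 1 kb or within 2500 bp of its start. The nearest peak edges were 12289 bp upstream and 4676 bp downstream. Its 1 peak within the span lay instead at the 3′ end and was the strongest of the 63.

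This 3′ peak (chr12:3959621-3960882) was 1262 bp wide, with a fold of 14.8 and a −log10 q of 448, and ranked 1602 of 183678 by fold. It covered the last 1023 bp of the gene and 239 bp beyond, with its summit 444 bp before the 3′ end. It overlapped no other gene: the near end of Efr3b, a plasma membrane lipid kinase adaptor on the minus strand, was a further 1672 bp away, and that is the 3′ end of Efr3b.

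Among the 4656 protein-coding genes with a peak within 1 kb of the 3′ end, the median fold there was 3.39 (quartiles 2.70 and 5.11), and 44 genes exceeded Pomc. A peak at the 3′ end with none at the start was an uncommon arrangement, found in 633 of 17492 genes with a strand, or 3.62%. In those 633 genes the median 3′ fold was 3.54, and 6 exceeded Pomc. A 3′ peak of either kind was found in 26.6% of genes, and of the 3 members with a strand only Pomc had one.

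The other 24 peaks of the Pomc window were weaker. Upstream there were 11, of which 3 overlapped Dnmt3a, the de novo DNA methyltransferase. The strongest upstream peak (chr12:3928482-3929443, 962 bp) had a fold of 7.35 and a −log10 q of 68.5, with its summit 25771 bp before the Pomc start, between the genes. It ranked 13479 by fold. The upstream peak closest to Pomc (chr12:3942064-3942656, 593 bp) had a fold of 3.11 and a −log10 q of 8.71, both below the list's medians, at 12771 bp from the start. Neuronal Pomc transcription is known to use enhancers upstream of the gene, and whether a peak here falls on them was not tested.

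Downstream of Pomc, all 13 peaks lay inside Efr3b. The strongest (chr12:3980489-3982433, 1945 bp) had a fold of 6.30 and a −log10 q of 145. Next came chr12:4005983-4007660, 1678 bp wide, with a fold of 4.85, and chr12:3990018-3990427, 410 bp wide, with a fold of 4.27. The other 10 had folds of 1.66 to 3.83. By the nearest end of a protein-coding gene, 10 of the 25 peaks went to Dnmt3a, 13 to Efr3b and 2 to Pomc, namely the 3′ peak and the one 12771 bp upstream. Counting gene starts alone turned this around, with 19 of the 25 nearest to the start of Pomc. The start of Efr3b lay outside the window and had a fold of 8.63, while neither end of Dnmt3a had a peak within 1 kb.

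**Figure D1:**
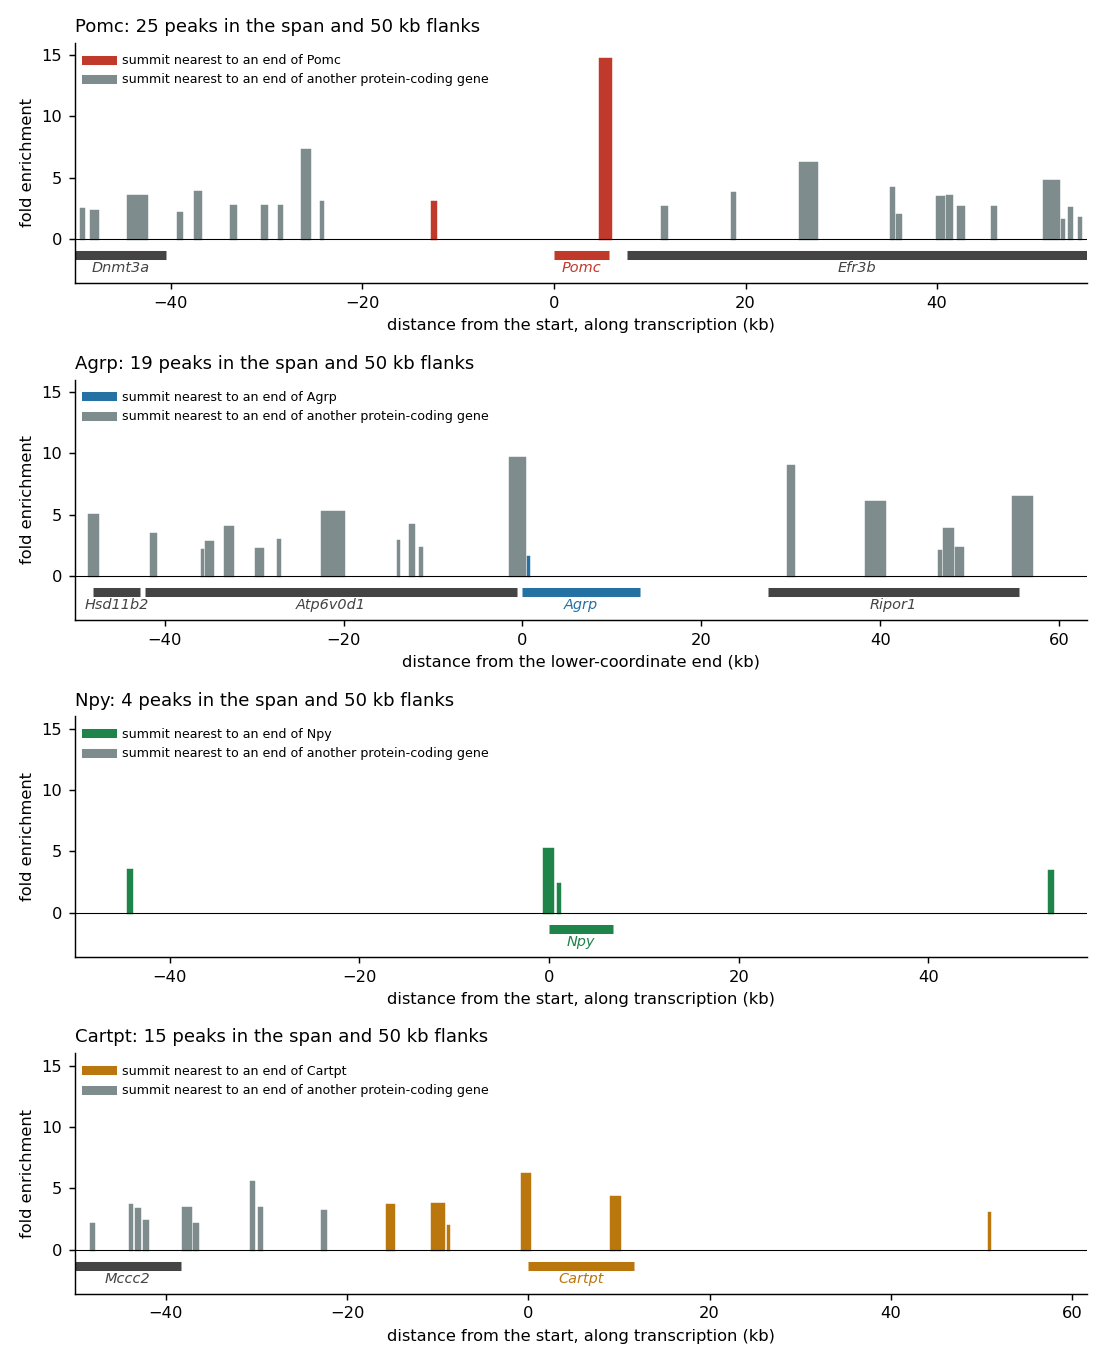
H3K27ac peaks in the windows of the 4 genes. Each bar is 1 peak, as wide as the peak (x axis, kb from the start, or from the lower-coordinate end for Agrp) and as high as its fold enrichment (y axis), coloured where the nearest protein-coding gene end belongs to the named gene and grey where it belongs to a neighbour; gene spans are drawn beneath. The bar of fold 14.8 stands at the 3′ end of Pomc, with none at its start, and the 4 peaks of Npy stand alone.

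Agrp, the melanocortin antagonist, had a strong peak at one end, but that peak was shared with the start of another gene. The gene (GeneID 11604) spans chr8:105566695-105579845, and as the tables used give it no strand, its ends are named by coordinate. The peak at the lower end (chr8:105565136-105567033) was 1898 bp wide, with a fold of 9.70 and a −log10 q of 342, and ranked 7252 by fold. It reached 339 bp into Agrp and 929 bp into Atp6v0d1, whose start is 631 bp from the Agrp end. The summit was 67 bp from the Atp6v0d1 start, 49 bp from the near end of Gm38250, a plus-strand long noncoding RNA that runs across the whole of Agrp, and 564 bp from Agrp. The peak therefore cannot be put to Agrp alone.

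As a start peak, that of Atp6v0d1 was of middling strength: its fold exceeded those of 56.3% of the genes with a peak at the start. Of the 15147 protein-coding genes with an end peak, 24.4% had their strongest one reaching an end of another protein-coding gene, and among the 4 feeding peptides Agrp was the 1 that did.

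The only other peak touching Agrp (chr8:105567214-105567443) was 230 bp wide, with a fold of 1.65 and a −log10 q of 4.18, and ranked 183155 of 183678 by fold. It was also the only 1 of the 19 peaks in the window whose nearest protein-coding gene end was that of Agrp. The upper end of Agrp had no peak. Above it the next peak (chr8:105596296-105597083, 788 bp) had a fold of 9.07 and a −log10 q of 85.2 and lay in Ripor1, 2793 bp past its start. Some of the widest peaks of the 4 windows lay in these neighbours: chr8:105544186-105546732 in Atp6v0d1, 2547 bp wide with a fold of 5.25, and chr8:105604950-105607206 in Ripor1, 2257 bp wide with a fold of 6.10. A peak over the 3′ end of Ripor1 (chr8:105621448-105623604, 2157 bp) had a fold of 6.52. By nearest end, 11 peaks went to Atp6v0d1, 6 to Ripor1 and 1, with a fold of 5.05, to Hsd11b2, the enzyme that inactivates glucocorticoids. The other 18 of the 19 peaks around Agrp thus lay nearest to an end of a neighbour.

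Npy, the peptide made in the same neurons as AgRP, had the fewest peaks and shared none of them with another protein-coding gene. The gene (GeneID 109648) spans chr6:49822710-49829507 on the plus strand, and the next protein-coding gene was 280721 bp away. A peak over the start (chr6:49822115-49823093) was 979 bp wide, with its summit 93 bp before the start and 384 bp of it inside the gene. It had a fold of 5.27 and a −log10 q of 27.97, and ranked 27465 by fold. This was a weak start peak, with a fold above those of 20.8% of the 11420 genes that had one, whose median was 8.97 (quartiles 5.85 and 12.2).

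A narrower peak (chr6:49823520-49823892, 373 bp, fold 2.38, −log10 q 4.13) followed inside the gene, 1076 bp after the start. The remaining peaks were far off, at 44374 bp before the start (chr6:49778210-49778691, fold 3.54) and at 46146 bp past the 3′ end (chr6:49875397-49875914, fold 3.47). There was no peak at the 3′ end. The neighbourhood of Npy was sparse but not unusual for a gene so isolated. Its 4 peaks equalled the median of the 2484 genes with no other protein-coding gene within 50 kb (quartiles 0 and 18), and its coverage of 2.20% stood beside their median of 1.84%.

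Cartpt, the precursor of CART, had peaks at both of the starts that the annotation gives it. The gene (GeneID 27220) spans chr13:99898483-99910179 on the minus strand, and the promoter table places its start at position 99900683, inside the span and 9496 bp from its 5′ end. The peak at the 5′ end of the span (chr13:99910040-99911012, 973 bp) had a fold of 6.21 and a −log10 q of 38.2, with its summit 7 bp from that end. The peak at the inner start (chr13:99900083-99901149, 1067 bp) had a fold of 4.41 and a −log10 q of 19.4, with its summit 60 bp from that start and 9443 bp from the other summit. Both were weak for start peaks, above 27.6% and 13.5% of genes with a peak at the respective kind of start. With no value per replicate, whether the 2 starts differ in mark was not tested.

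The rest of the Cartpt window was lopsided: 13 of its 15 summits, that of the 5′ end peak included, lay upstream of the span, and 1 lay downstream (chr13:99859245-99859439, 195 bp, fold 3.03). Apart from the 5′ end peak, the highest upstream fold, 5.61, was that of chr13:99940415-99940896 (482 bp, −log10 q 44.1), between Cartpt and Mccc2, a subunit of a leucine-degrading carboxylase. Another 4 peaks, with folds of 2.20 to 3.74, lay inside Mccc2. The widest upstream peak (chr13:99919437-99920938, 1502 bp) had a fold of 3.83, with its summit 9618 bp from the 5′ end. By nearest end, 6 peaks went to Cartpt and 9 to Mccc2, whose start lay outside the window and had a fold of 17.4. By nearest start, all 15 went to Cartpt.

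Of the 3 members with a strand, Npy and Cartpt had a peak within 1 kb of the start, against 65.3% of the 17492 genes with a strand. All 4 had a peak within 1 kb of at least 1 end, against 69.2% of protein-coding genes, and all 4 had a peak in the window, against 85.1%. With so few genes, these counts do not set the members apart from the background. The order of the highest end folds was Pomc at 14.8, Agrp at 9.70, Cartpt at 6.21 and Npy at 5.27, and no spread is known that would say which neighbours in that order differ.

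With flanks of 50 kb, the windows of Pomc and Agrp held more peaks than those of most genes. Pomc had 25 peaks covering 17.6% of its window, Agrp 19 covering 16.2%, Cartpt 15 covering 8.67% and Npy 4 covering 2.20%, against a median of 12 peaks (quartiles 4 and 20) and 7.08% over all protein-coding genes. Coverage exceeded that of 94.2% of genes for Pomc, 90.9% for Agrp, 58.2% for Cartpt and 25.0% for Npy. The higher peak counts of Pomc and Agrp did not hold closer to the genes. With 10 kb flanks each had 2 peaks against a median of 4, and with 25 kb they had 6 and 7 against 7. With 100 kb they had 53 and 35 against 23. Every window includes the gene's own span (5699 bp for Pomc and 13151 bp for Agrp), and these counts are not corrected for its length. With short flanks they therefore do not show that either gene is poorer in peaks per length than others. By the nearest end of a protein-coding gene, 13 of the 63 peaks, or 20.6% (Wilson 95% interval 12.5 to 32.2, counting error only), went to the member itself. The interval takes peaks of the same window as independent and describes no single gene, since the share ran from 1 of 19 for Agrp to 4 of 4 for Npy. The pooled share depends on the measure. It was 60.3% by the nearest gene start, with 19 of 25 peaks for Pomc, 15 of 15 for Cartpt, 4 of 4 for Npy and, for want of a strand, 0 of 19 for Agrp. Within 25 kb flanks it was 47.6%. The median fold was 3.54 for those 13 and 3.16 for the other 50, both close to the list's median. A total of 19 peaks overlapped no annotated gene of any kind.

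**Figure D2:**
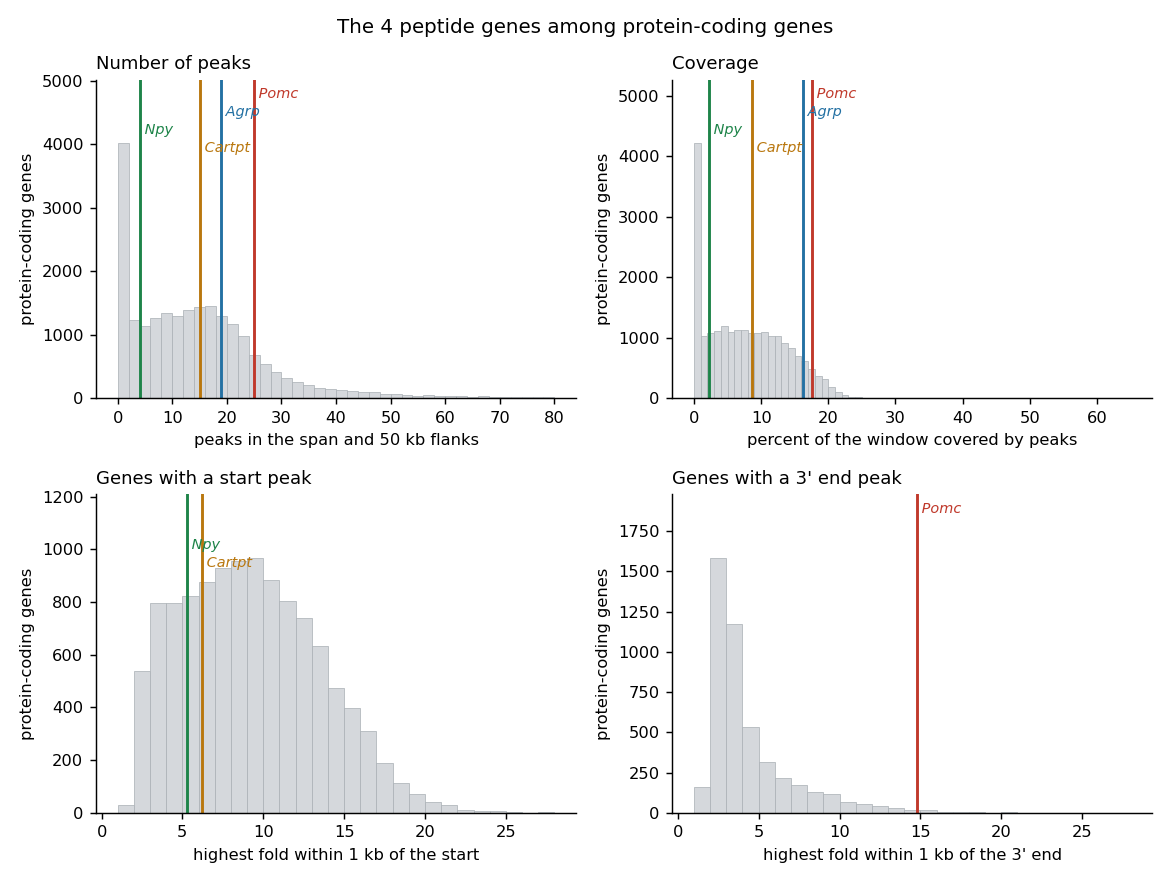
The 4 genes (coloured lines) among protein-coding genes (grey bars, number of genes on the y axis). The upper panels show the number of peaks in the window (x axis up to 80; 239 genes with more are not drawn) and the percent of the window covered; the lower panels show the highest fold within 1 kb of the start or of the 3′ end, over genes with such a peak. Pomc and Agrp lie to the right in the upper panels, Npy and Cartpt to the left among start peaks, and Pomc in the far right tail of 3′ peaks.

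In strength the 63 peaks were much like the list they came from: 15 had a fold at or above its upper quartile, which 25% of all peaks reach (5 for Pomc, 6 for Agrp, 1 for Npy and 3 for Cartpt), and 32 had a −log10 q at or above its median, which 50% reach. The Pomc window had a median fold of 2.80, below the list's 3.18, so the 3′ peak stood apart from its own surroundings. The median folds of the Agrp, Npy and Cartpt windows were 3.48, 3.50 and 3.45. At the edges of the window, the last peaks counted for Pomc lay 49042 bp below and 49062 bp above its span, and the first left out lay at 58227 and 54225 bp. For Npy the last counted lay at 44019 and 45890 bp and the first left out at 75337 and 89863 bp. For Agrp the last counted lay at 47396 and 41603 bp, and the first left out at 50268 bp, with a fold of 5.11, and at 56073 bp. For Cartpt the last counted lay at 39044 and 47888 bp and the first left out at 51857 and 54124 bp.

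**Figure D3:**
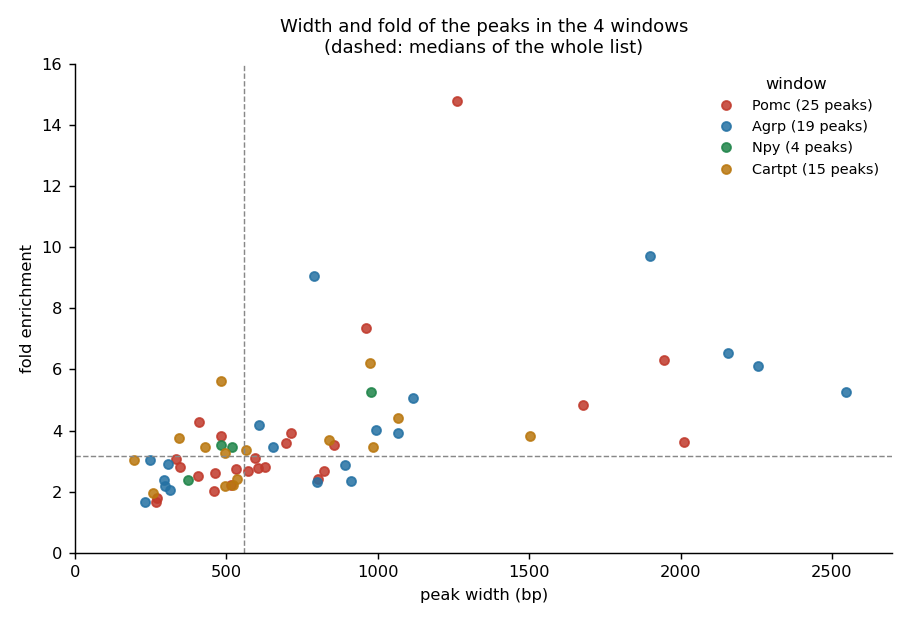
Fold enrichment (y axis) against width in bp (x axis) for the 63 peaks, coloured by window; dashed lines are the medians of the whole list, 557 bp and a fold of 3.18. The Pomc 3′ peak is the highest at 14.8 with a width of 1262 bp, and the widest, at 2547 bp, is 1 of the Agrp window.

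Set beside 19 other hypothalamic peptide genes (9 neuroendocrine and 10 of the lateral and dorsomedial hypothalamus), Pomc and Agrp had the 2 highest end folds. By the higher fold of either end, Pomc ranked 1 and Agrp 2 of the 23, Cartpt 5 and Npy 9. The other 19 ran from 0 to 6.94, the value of Tac1, precursor of substance P, with a median of 3.75. Agrp holds its place through the peak it shares with Atp6v0d1. Of the other 16 with a strand, 11 had a start peak and 9 had a 3′ end peak, beside 65.3% and 26.6% of all genes with a strand. A 3′ peak was thus not rare among these peptide genes. In 2 of the 16 it came with none at the start, beside 3.62% of all genes with a strand. These were Tac2 and Oxt, the genes of neurokinin B and oxytocin. Their 3′ folds were 2.77 and 2.56, against the 14.8 of Pomc. With the promoter table's start, the peak of Oxt also counted as a start peak, while Pomc and Tac2 still had none.

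Window counts put the 4 in the same order, at lower ranks. Pomc ranked 3 by number of peaks, Agrp 5, Cartpt 7 and Npy 16, and the other peptide genes ranged from 0 to 37 peaks with a median of 8. Ghrh, which encodes growth hormone-releasing hormone, had the 37, and Pmch and Vip, which encode the precursors of melanin-concentrating hormone and vasoactive intestinal peptide, had none.

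**Figure D4:**
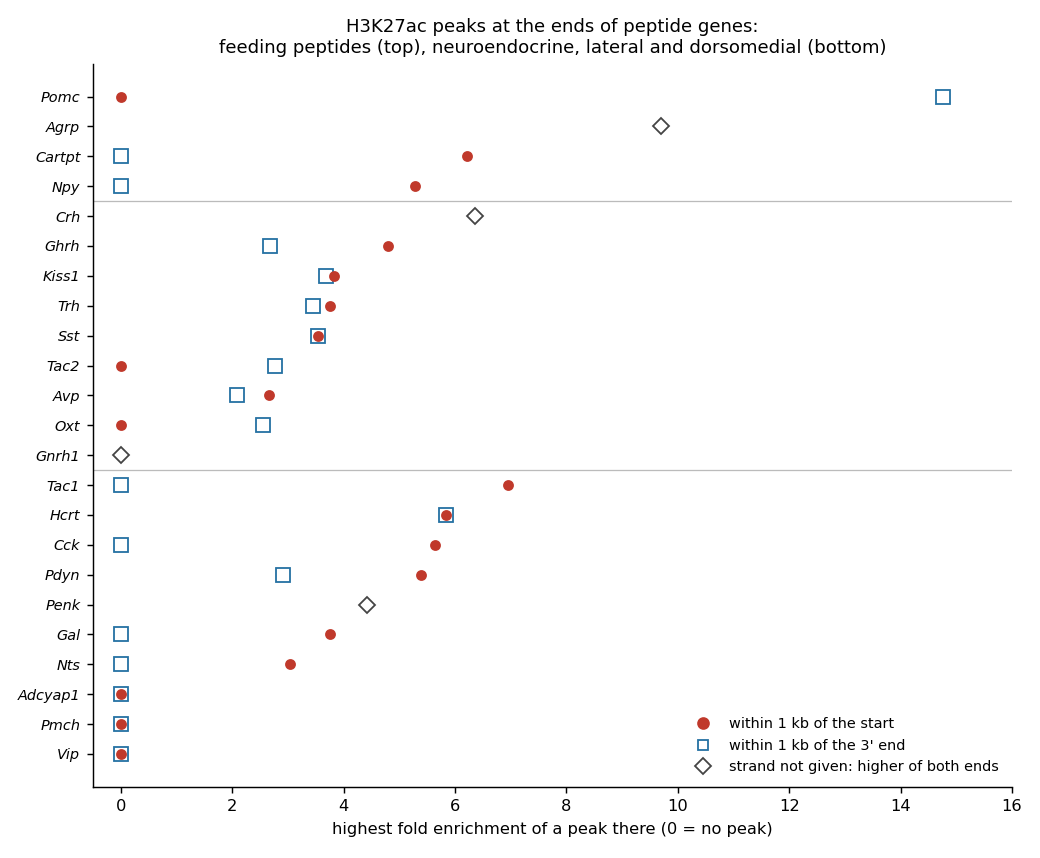
Highest fold enrichment (x axis; 0 means no peak) within 1 kb of the start (filled circles) and of the 3′ end (open squares) of 23 peptide genes (rows), or of either end where no strand is given (diamonds). Pomc has 14.8 at its 3′ end and 0 at its start; the other 19 peptide genes below the upper line reach at most 6.94.

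The genes that process, receive and regulate these peptides were marked at their starts more often than not. Of 42 pathway genes, 34 had a strand, and 28 of those had a start peak, beside 65.3% of all genes. This was 82.4% (Wilson 95% interval 66.5 to 91.7, counting error only). The genes were picked by role with earlier results known, so the interval is no test against the share of all genes. Precursor processing was marked in 6 of 6 genes with a strand, and Cpe, which trims the cut peptides and has no strand here, had 12.3 at its higher end. Folds there ran from 7.34 at Pcsk1n, a convertase inhibitor, to 10.2 at Prcp, a carboxypeptidase that degrades alpha-MSH and whose peak reaches another gene. Pcsk1 and Pcsk2, the convertases that cut POMC, had 10.2 and 7.88. Pomc was thus without a start peak while the enzymes that process its product had one.

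Among the peptide receptors, 5 of 7 had a start peak (71.4%), near the 65.3% of all genes. Their folds ran from 3.87 at Npy4r to 10.9 at Npy5r, and Mc3r, the melanocortin receptor shared by POMC and AgRP products, had 6.78. Oprm1, the mu-opioid receptor that beta-endorphin binds, and Mc1r, the melanocortin receptor of pigment cells, had none. The promoter table places the start of Oprm1 inside its span, and there the fold was 11.8. Mc4r, the main melanocortin receptor of appetite, has no strand in the tables and had 4.84 at the higher end. All 4 receptor partners were marked, from 5.23 at Sdc3 to 11.8 at Atrn, and Mrap2, the accessory protein of Mc4r, had 9.57.

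The list of receptors for circulating signals, which also holds the transmitter receptors Htr2c and Cnr1, had a start peak in 5 of 5 genes. The folds ran from 3.90 at Glp1r, the GLP-1 receptor, to 7.31 at Cnr1 and 8.86 at Htr2c, a serotonin receptor of Pomc neurons. Lepr, the leptin receptor, had 5.06. Of the transcription factors, 8 of 12 had one (66.7%), near the 65.3% of all genes. Their folds ran from 3.64 at Hmx3 to 12.8 at Stat3, which carries the leptin signal. Isl1 and Nkx2-1, factors known to act on Pomc in the hypothalamus, had 5.05 and 3.83, and Otp, needed for Agrp neurons, had 3.65. Bsx, Hmx2, Neurog3 and Prdm12 had no start peak, although Hmx2 had 5.39 and Prdm12 2.60 at the promoter table's start. The arrangement seen at Pomc, a 3′ peak with none at the start of the span, was found in 3 of the 34 pathway genes, beside 3.62% of all genes with a strand. These were Prdm12, Mc1r and Bsx, with 3′ folds of 8.55, 7.27 and 2.53. Where a pathway gene had a start peak, the median fold was 7.25. This was above the folds of Npy and Cartpt but below the median of 8.97 over all genes with a start peak.

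**Figure D5:**
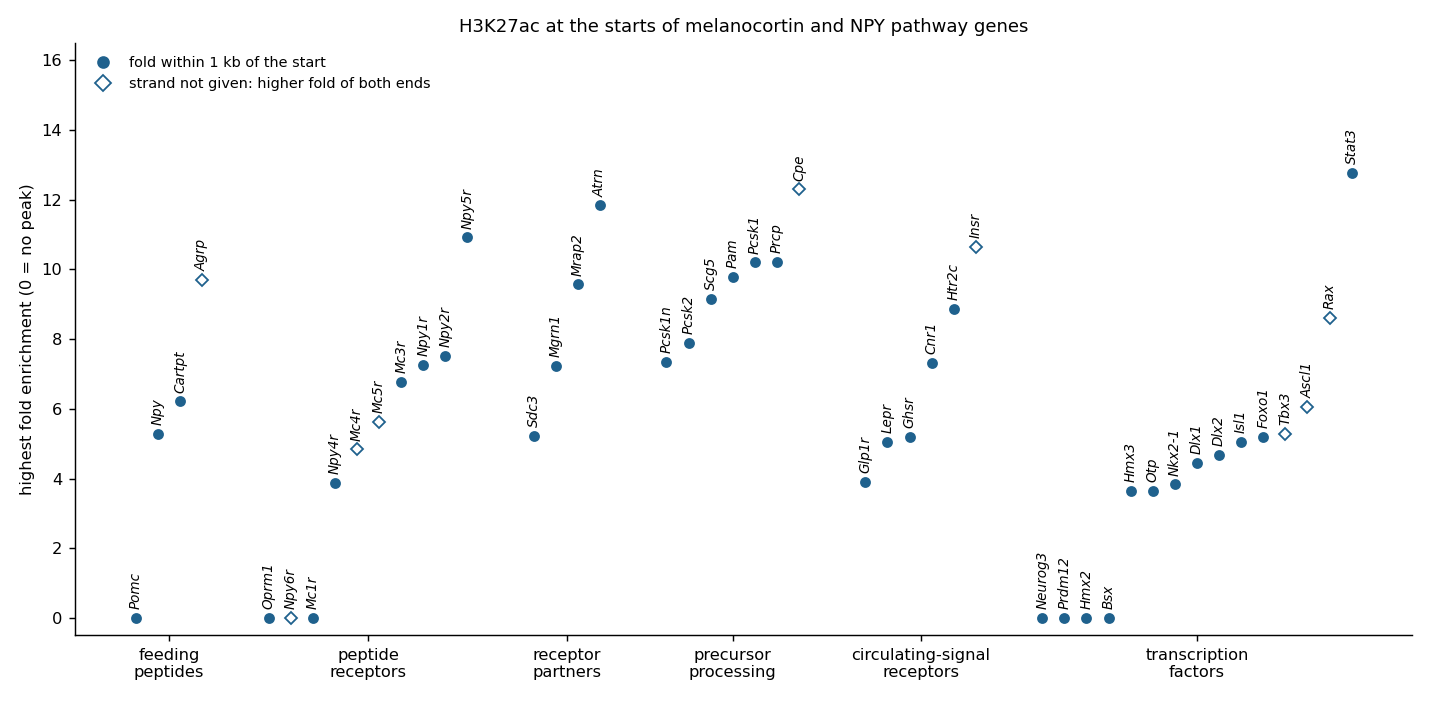
Fold enrichment within 1 kb of the start (filled circles; y axis, 0 means no peak), or the higher fold of both ends where no strand is given (diamonds), for the 4 feeding peptides and 42 pathway genes grouped by role along the x axis. Every gene of precursor processing lies at 7.34 or above, while Npy and Cartpt lie at 5.27 and 6.21 and Pomc at 0.

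The tissue label was checked against markers. Of 12 hypothalamic markers, 10 had a peak at an end, beside 69.2% of all protein-coding genes, and 9 of the 10 with a strand had one at the start, beside 65.3%. Of the pituitary and cortical markers with a strand, 1 of 8 and 1 of 5 had a start peak. At the promoter table's starts, the cortical Fezf2 and the hypothalamic Hmx2 also had a peak, with folds of 4.51 and 5.39. The start peaks of the hypothalamic markers were weak, with a median fold of 3.65 against 8.97 over all genes with a start peak. By the span's start, the pituitary and the cortical start peak, those of Tbx19 and Tbr1, had folds of 2.96 and 4.55. These are counts over short lists, and no difference between them was tested. Pomc is also the main product of pituitary corticotrophs and melanotrophs, and pituitary markers were listed for that reason. Of 10 of them, 2 had an end peak, Tbx19 and Tshb. Tbx19, the corticotroph factor that drives Pomc, had 2.96 at its start and 2.98 at its 3′ end. Tshb had 10.4 at its 3′ end and none at its start. No end peak was found at Prl, Gh, Cga, Fshb, Lhb, Gnrhr, Pou1f1 or Pitx1. Of 6 cortical markers, Tbr1 and Neurod6 had one, with 4.55 and 5.06. The part of pituitary or cortical cells in the peaks of the 4 genes was not tested.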

How the data were processed

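The deposited peak list covers 3 bulk H3K27ac CUT&Tag samples together; the 14 Paired-Tag sub-libraries were not analysed here. Per the labels, samples were grouped by title. The list's columns, read by the narrowPeak order, hold positions, summits, scores and peak strength. The fold enrichment deposited by the authors is a linear ratio, and the −log10 q deposited by the authors is that of their caller. The score deposited by the authors was not used. Per the submitters' processing notes, the tools were UMI-tools 1.1.4, STAR 2.7.10a, cutadapt 4.5, BWA 0.7.17 and MACS2, on build mm10, with roles unnamed. For the caller's settings and the rule that combined the replicates, the sources used here give nothing. The highest q in the list was 0.118.

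Gene spans came from RefSeq GRCm38.p6, the assembly of mm10. Strand came from the RefSeq promoter table, matched by gene ID, which holds 17492 of the 21887 protein-coding genes (79.9%) and 3 of the 4 members. Agrp is not among them, so only its ends were used. A start is the 5′ end of the span. A start or end was called marked where a peak shared at least 1 bp with 1 kb to either side. The promoter table's own start differed from the span's end in 6909 genes and was used as an alternative chosen after seeing the data. Each peak was put to the nearest end of a protein-coding gene by its summit. Coordinates are 1-based.

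With 1 list for 3 samples, no test was run and likeness to other genes across samples could not be measured. The interval functions (Python 3.11.15, pandas 2.3.3, numpy 2.4.6) were checked on simulated data, and Wilson intervals came from scipy 1.17.1. Named genes were the members, the protein-coding genes in their windows, and in each role list the highest, the lowest and those without a start peak. Other pathway genes, and the peptide genes and markers, were named after their values were seen. Some of the pituitary markers first listed are not reported here. The members and lists were chosen with earlier results of these data known.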

Additional observations from a re-analysis of the deposited data

How the results depend on the processing

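No paired analysis was possible because the 3 samples share 1 peak list, and for the same reason no replicate could be left out. Over the alternatives tried, 22 of the 29 values that answer a comparison stayed within 1.5 times or within the counting interval, and 7 moved. The number of peaks in the 4 windows, 63 as reported, was 10 with flanks of 10 kb, 21 with 25 kb and 128 with 100 kb. It was 32 with only peaks at or above the list's median −log10 q and 15 with only those at or above its upper quartile of fold, all by construction. The share of peaks nearest to the member, 20.6%, was 47.6% with flanks of 25 kb and 60.3% by the nearest gene start, where Agrp, with no strand, counts 0 of 19. For single genes, 20 of 24 such peak counts moved. The members marked at the start (Npy and Cartpt) and at either end (all 4) were the same in every end-window and peak-strength setting run: windows of 500 and 2500 bp, summit only, and both stricter peak sets. At the promoter table's starts, Npy and Cartpt were again the 2 marked. Pathway genes with a start peak, 28 as reported, ran from 23 to 31. Depth is unknown, so missing peaks cannot be read as missing mark.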

Other observations

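Many peaks of the 4 windows shared their exact fold and −log10 q with other peaks of the list. The pair of values of the Npy start peak was carried by 244 peaks of the list, itself included, and those of its other peaks by 1345 to 1523. At Cartpt the pair was carried by 129 peaks for the 5′ end of the span and by 608 for the inner start. The Pomc peak 12771 bp upstream had a pair carried by 2086. The Pomc 3′ peak and the Agrp lower-end peak had values found in 1 peak each. The cause was not tested.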
